A study of Homo sapiens with 16 samples.

Results

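The genes followed here were HRAS, NRAS, RRAS, RRAS2 and MRAS, 5 members of the Ras family of small GTPases chosen by name out of 34451 genes for which transcript values could be summed. They were read in the 4-stage BJ fibroblast model of malignant transformation, a human cell line series in which each stage carries the transgenes of the stage before it. The primary stage was the unmodified BJ line, the immortalized stage carried hTERT, the transformed stage carried hTERT and SV40, and the metastasizing stage carried hTERT, SV40 and Ras-G12V, a mutated H-Ras. Every stage was grown for 6 passages at atmospheric oxygen and, separately, at 3% oxygen, a level of moderate hypoxia, which gave 8 groups of 2 libraries each, 16 in all. The libraries of a group, replicates a and b, came from duplicate plates of the same line grown side by side, so every p-value measures the spread between plates and not between independently derived lines. Serum-containing Dulbecco's modified Eagle's medium and a CO2-enriched atmosphere were common to all groups. The comparisons ask how the level of each gene differed between oxygen levels within a stage and between neighbouring stages at the same oxygen level. A promoter or vector for the transgenes was not given in the sources used here.

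Ras proteins are molecular switches that act mainly at the inner face of the plasma membrane. Exchange factors load them with GTP, GTPase-activating proteins return them to the GDP-bound state, and in the GTP-bound state they engage effectors such as the RAF kinases, which start the MEK and ERK cascade, and phosphatidylinositol 3-kinases. HRAS and NRAS are classical Ras proteins, which differ mainly in their lipid-modified C-terminal ends, whereas RRAS, RRAS2 (also called TC21) and MRAS form the related R-Ras group. RRAS is known for its part in integrin-mediated adhesion, RRAS2 is able to transform cells when mutated, and GTP-bound MRAS is part of the SHOC2 phosphatase complex that activates RAF kinases. Activating substitutions in the nucleotide-binding P-loop, of the kind named in the label of the metastasizing stage, keep a Ras protein in its GTP-bound state.

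The coding sequence around the P-loop is printed for the R-Ras group, RRAS, RRAS2 and MRAS, because it is a stretch in which these genes are alike and shows how far their reads can be told apart. Each window holds 51 bases of the GRCh37 genome on the coding strand, within a single exon, and the capitals mark a glycine codon of the P-loop.
RRAS, residue 38, chr19:50143218-50143268, minus strand: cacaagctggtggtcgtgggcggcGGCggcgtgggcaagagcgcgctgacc
RRAS2, residue 23, chr11:14380324-14380374, minus strand: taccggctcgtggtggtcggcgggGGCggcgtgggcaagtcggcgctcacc
MRAS, residue 22, chr3:138091765-138091815, plus strand: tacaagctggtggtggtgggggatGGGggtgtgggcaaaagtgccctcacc
The marked codon is GGC in RRAS and RRAS2 and GGG in MRAS. The RRAS window matched that of RRAS2 at 40 of its 51 bases and that of MRAS at 40, and the windows of RRAS2 and MRAS matched at 37. Over the whole protein, 85.2% of the shorter protein was identical between HRAS and NRAS, 66.2% between RRAS and RRAS2, and 52.9% to 56.1% between HRAS and each of the R-Ras group. No stretch of 31 bases, the word length of the quantification tool by default, was shared between transcripts of different members, so reads of one member had no such word in common with another. RRAS2 shared 332 of the 2313 such words of its longest transcript with the pseudogene RRAS2P1, which was listed at 0.636 TPM at most. The values are levels per transcript and do not separate the alleles of HRAS, nor the transgene from the endogenous gene.

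The genes lie on GRCh37 at chromosome 11 from 532242 to 537321 on the minus strand (HRAS), chromosome 1 from 115247090 to 115259392 on the minus strand (NRAS), chromosome 19 from 50138549 to 50143400 on the minus strand (RRAS), chromosome 11 from 14299468 to 14386052 on the minus strand (RRAS2) and chromosome 3 from 138066490 to 138124376 on the plus strand (MRAS). The annotation lists 10, 1, 2, 11 and 9 of their transcripts in the deposited table, in the same order. Levels are given in TPM, the length-scaled unit of the deposited table, which corrects for transcript length and for the total of a library, summed over the transcripts of a gene. Read counts were not used here, so the depth behind a value is unknown and no counting interval is given. In bulk libraries, fewer cells with a high level and less RNA per cell cannot be told apart. All 10 fibroblast markers, among them COL1A1, VIM and PDGFRB, were above 1 TPM in every library, with a sum between 3952 TPM in transformed cells at 3% oxygen (replicate b) and 22449 TPM in primary cells at atmospheric oxygen (replicate a). The epithelial, endothelial and blood markers summed to at most 3.64, 10.4 and 3.73 TPM. TERT, the other transgene with a human gene, was listed at 0 in the primary libraries at atmospheric oxygen, at 0.0370 and 0.543 TPM in those at 3% oxygen, and at 31.6 to 193 TPM in every library of the later stages.

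Taken from lowest to highest over the 16 libraries, HRAS ranged from 32.7 to 772 TPM, NRAS from 36.0 to 87.3 TPM, RRAS from 32.4 to 147 TPM, RRAS2 from 66.7 to 175 TPM and MRAS from 7.07 to 46.5 TPM. The highest library exceeded the lowest 23.6-fold for HRAS, 6.59-fold for MRAS, 4.54-fold for RRAS, 2.62-fold for RRAS2 and 2.43-fold for NRAS. The composition of the family changed along the model. RRAS had the highest TPM of the 5 genes in 5 libraries, all of the primary or immortalized stage, RRAS2 in 9 libraries, and HRAS in 2, the metastasizing libraries at 3% oxygen. The 5 genes together summed to between 245 and 412 TPM in every library except replicate b of the metastasizing stage at 3% oxygen, in which they reached 1060 TPM and HRAS made up 72.8% of the sum. In replicate a of that group HRAS made up 36.7%, and in the other 14 libraries between 13.1% and 31.5%.

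**Figure D1:**
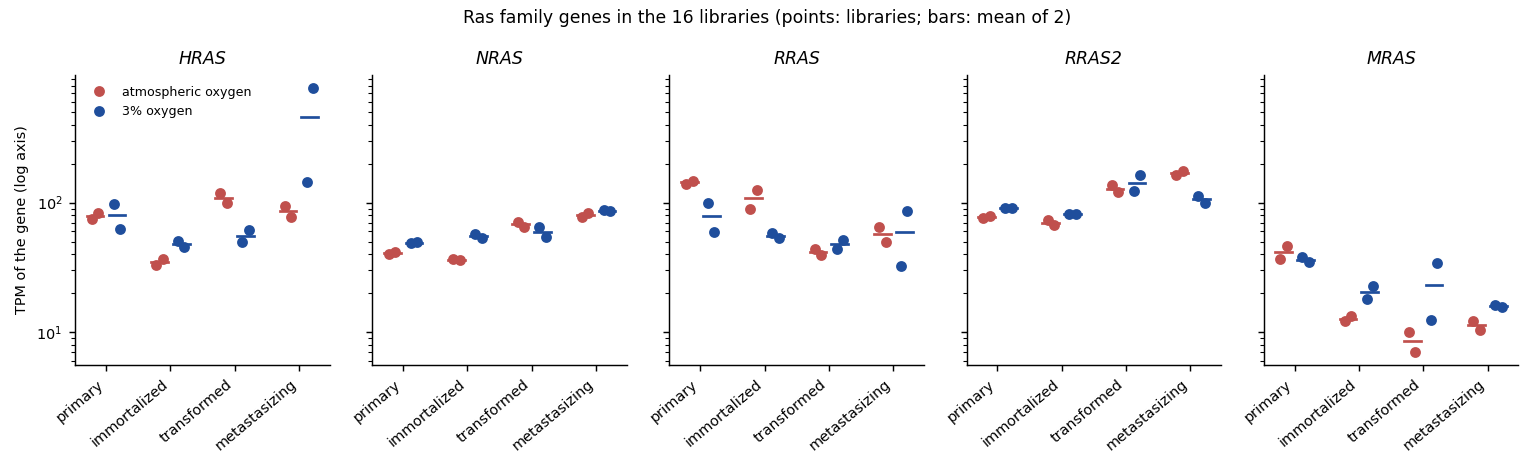
TPM of HRAS, NRAS, RRAS, RRAS2 and MRAS (log axis) by stage, with red points for libraries at atmospheric oxygen, blue points for libraries at 3% oxygen and a bar at the mean of the 2 libraries of a group. HRAS reached 772 TPM in 1 of the 2 metastasizing libraries at 3% oxygen and 143 TPM in the other, while RRAS2 in all transformed and metastasizing libraries was above every library of the earlier stages and MRAS was highest in primary cells.

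HRAS is the gene from which the Ras transgene derives that enters at the last stage of the model, and its level stood above that of transformed cells at 3% oxygen but not at atmospheric oxygen. In the libraries labelled metastasizing, HRAS stood at 94.6 and 78.1 TPM at atmospheric oxygen and at 143 and 772 TPM at 3% oxygen. In transformed cells, which lack the Ras transgene, it stood at 120 (119.8) and 99.0 TPM at atmospheric oxygen and at 49.4 and 61.8 TPM at 3% oxygen. Both libraries labelled metastasizing at atmospheric oxygen thus lay below both transformed libraries, and both at 3% oxygen lay above them. At atmospheric oxygen the HRAS level alone therefore does not show the transgene, nor can it show that the transgene is missing. The paper reports that authentication by variants called in its RNA-seq data bore out the stage-specific mutations of the model. Because the allele was not read here, directions drawn from these 2 libraries hold for cells that carry that label. In primary cells HRAS was at 74.2 and 82.6 TPM at atmospheric oxygen and 97.6 and 63.0 TPM at 3% oxygen. In immortalized cells it was at 32.7 and 36.5 TPM and at 50.8 and 45.4 TPM, the lowest levels of the model at atmospheric oxygen.

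Ordered by group mean, HRAS ran from immortalized cells at atmospheric oxygen (34.6 ± 2.64 TPM, SD, n = 2) through immortalized cells at 3% oxygen (48.1 ± 3.84), transformed cells at 3% oxygen (55.6 ± 8.74), primary cells at atmospheric oxygen (78.4 ± 5.91) and at 3% oxygen (80.3 ± 24.4), cells labelled metastasizing at atmospheric oxygen (86.3 ± 11.7) and transformed cells at atmospheric oxygen (109 ± 14.7) to metastasizing cells at 3% oxygen (458 ± 445). The SD of the last group was nearly as large as its mean. Neighbours in this order overlapped between immortalized and transformed cells at 3% oxygen, between the primary groups, and between primary cells at 3% oxygen and cells labelled metastasizing at atmospheric oxygen.

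Differences between groups were tested with limma on log2(TPM + 0.5) across all protein-coding genes whose mean reached 1 TPM in a group compared, and a gene was called at a Benjamini-Hochberg adjusted p under 0.01 and a change of at least 2-fold. Between transformed and metastasizing cells at 3% oxygen HRAS rose by a log2 fold change of 2.58 (SE 0.55, 95% interval 1.37 to 3.79, adjusted p = 0.00635), a comparison in which 5.92% of 12288 genes were called. The size of this rise rested on replicate b of the metastasizing cells, since the log2 fold change was 1.37 without it and 3.79 without replicate a. Either fit leaves 1 library in that group, so it holds no measure of the spread between its plates. Leaving out any 1 of the other 14 libraries kept the direction, with values of 2.42 to 2.74, but raised the adjusted p to between 0.0104 and 0.036. At atmospheric oxygen the same step gave -0.34 on that scale (95% interval -1.55 to 0.87, adjusted p = 0.715). The interval is wide enough to hold a rise of the gene as well as a fall. Within metastasizing cells, HRAS at 3% oxygen exceeded that at atmospheric oxygen by 1.95 on the log2 scale (SE 0.55, 95% interval 0.74 to 3.16, adjusted p = 0.0225), which did not pass. This difference was 0.74 without replicate b and 3.16 without replicate a. The difference between the oxygen effects of the metastasizing and transformed stages was 2.92 (SE 0.78, 95% interval 1.21 to 4.63, adjusted p = 0.0195) and did not pass either. The paper, whose test used read-level estimates, describes the mutated HRAS as raised at low oxygen in metastasizing cells. It describes wild-type HRAS as repressed in SV40 cells, where the value here was -0.97 (adjusted p = 0.195) and did not pass. The values used here do not separate these alleles.

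The listed HRAS transcripts differed in how they stood in these libraries. HRAS-201 (ENST00000311189, a protein-coding transcript of 6 exons and 1070 bases) stood at 120 (119.9) and 740 TPM in the metastasizing libraries at 3% oxygen. It stood at 55.5 and 49.6 TPM in those at atmospheric oxygen, and at 57.3 and 54.3 TPM in transformed cells at atmospheric oxygen against 26.2 and 24.5 TPM at 3% oxygen. In the 8 libraries of the primary and immortalized stages it lay between 14.3 and 50.5 TPM. The other HRAS transcripts together stood at 23.6 and 31.8 TPM in the metastasizing libraries at 3% oxygen, within the range of 14.7 to 62.5 TPM that they covered in the other 14 libraries. HRAS-201 accordingly made up 83.6% and 95.9% of HRAS in those 2 libraries and between 39.7% and 63.6% in all others.

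**Figure D2:**
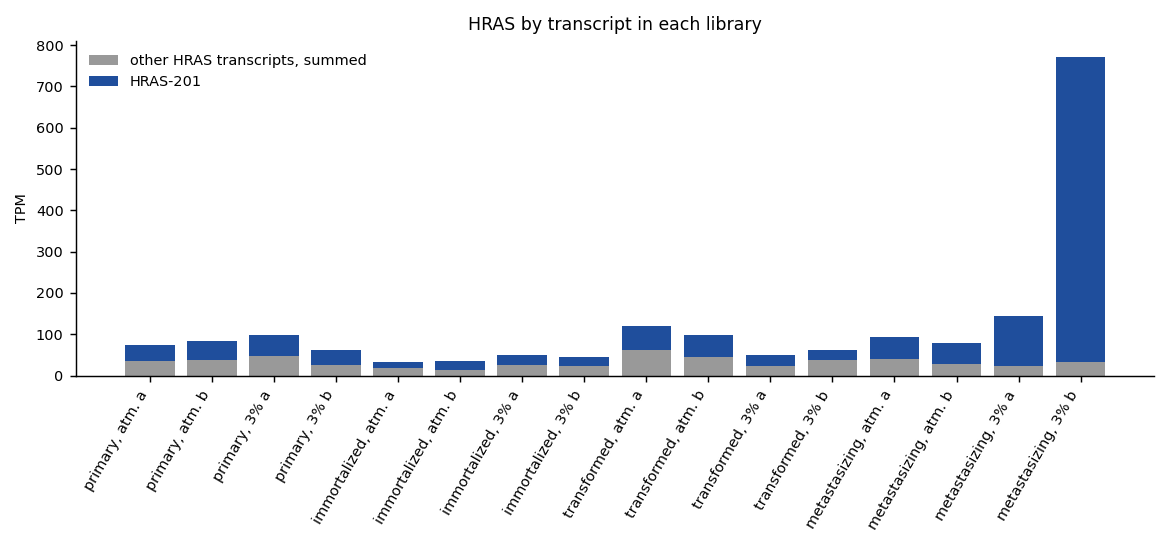
TPM of HRAS in each of the 16 libraries, split into HRAS-201 (blue) and the sum of the other HRAS transcripts (grey). The blue part reached 740 TPM in replicate b of the metastasizing cells at 3% oxygen and 120 TPM in replicate a, whereas the grey part stayed between 14.7 and 62.5 TPM in all libraries.

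Single transcripts were fitted in the same way, each with its p-value adjusted over all transcripts tested. HRAS-201 was called between transformed and metastasizing cells at 3% oxygen, with a log2 fold change of 3.53 (SE 0.60, adjusted p = 0.00807), among 1.42% of 44102 transcripts called. It was not called in the step at atmospheric oxygen (log2 fold change -0.09, adjusted p = 0.960, with 0.67% of transcripts called) or between oxygen levels in metastasizing cells (2.49, adjusted p = 0.0350, with 1.6% called). HRAS-202, HRAS-203, HRAS-206, HRAS-208 and HRAS-210 were tested beside it and were not called in any of these 3 comparisons. Their log2 fold changes in the step at 3% oxygen were 2.01, -0.02, 1.04, -1.84 and -2.38. HRAS-202 did not exceed 2.94 TPM in any library, HRAS-208 reached 19.5 TPM and HRAS-206, a transcript annotated for nonsense-mediated decay, reached 20.2 TPM. HRAS-204 and HRAS-205 were listed at 0 in every library. None of the 1040 words of 31 bases in HRAS-201 was its own, and it shared between 39.6% and 93.4% of the words of each other HRAS transcript, so how reads were divided among them rests on the estimates of the quantification tool.

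No gene beside HRAS was called with it. PTDSS2 and RNH1 on its lower side (distances of 40842 and 24941 bases) and LMNTD2 on its higher side (17528 bases) were not called in any of the 3 comparisons, and LRRC56, whose start lies 205 bases beyond HRAS, was too low to be tested. In the metastasizing libraries at 3% oxygen PTDSS2 was at 18.7 and 18.9 TPM, RNH1 between 41.9 and 74.6 TPM, LMNTD2 at 0.934 TPM at most and LRRC56 at 0.499 TPM at most. Their log2 fold changes against transformed cells at 3% oxygen were -0.43 for PTDSS2, -0.37 for RNH1 and -0.77 for LMNTD2. The value for TERT in the same step was -0.71 (adjusted p = 0.171).

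The metastasizing libraries at 3% oxygen differed from each other at more genes than the libraries of any other group. Of 11843 protein-coding genes that averaged 1 TPM or more there, 1301 (11.0%) differed more than 2-fold between the replicates, against 1.83% to 4.08% in the other 7 groups. HRAS in replicate b exceeded replicate a by 2.42 on the log2 scale, a difference that 79 genes (0.667%) matched or exceeded. RRAS differed by 1.41 in the same direction, and NRAS (-0.03), RRAS2 (-0.16) and MRAS (-0.05) were close in the same libraries. The replicates of the transformed cells at 3% oxygen differed by 1.43 at MRAS, as much as or less than 2.05% of the genes there.

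**Figure D3:**
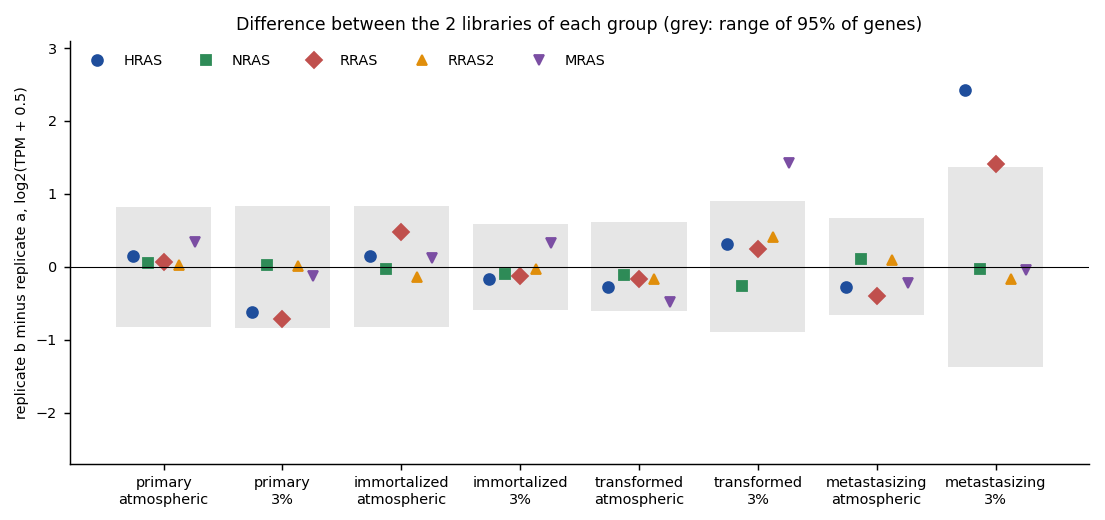
Difference between replicates b and a on log2(TPM + 0.5) for the 5 genes in each of the 8 groups, with a grey band that holds 95% of the genes of at least 1 TPM in that group. HRAS (2.42) and RRAS (1.41) in metastasizing cells at 3% oxygen and MRAS (1.43) in transformed cells at 3% oxygen lay outside their band, whose limit was 1.37 in the former group and 0.588 to 0.901 in the others.

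The spread of HRAS in that group also set the error of its other comparisons, since all 16 libraries shared 1 estimate of the spread per gene. HRAS was lower in immortalized than in primary cells at atmospheric oxygen by a log2 fold change of -1.17 (adjusted p = 0.120) and higher by 1.64 in the step to transformed cells (adjusted p = 0.0250), with libraries that did not overlap in either step, and neither passed. Without replicate b of the metastasizing cells at 3% oxygen the adjusted p-values were 0.000993 and 5.29e-05, and without replicate a 0.000989 and 5.28e-05. The difference between the oxygen effects of transformed and immortalized cells was -1.44. That of metastasizing against transformed cells was 1.71 without replicate b and 4.13 without replicate a. In each of these fits the metastasizing group at 3% oxygen was 1 library, which added nothing to the estimate of the spread. Within transformed cells HRAS was lower at 3% oxygen in both libraries, by a value of -0.97 on the log2 scale (adjusted p = 0.195 over all libraries, 0.00333 without replicate b and 0.00332 without replicate a).

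NRAS, the other classical member, had the narrowest range of the 5 genes over the 16 libraries. It stood at 40.3 and 41.8 TPM in primary cells at atmospheric oxygen and 48.8 and 49.7 TPM at 3% oxygen. In immortalized cells it stood at 36.7 and 36.0 TPM and at 56.95 and 53.4 TPM. Both of these stages thus had higher NRAS in each library at 3% oxygen. In transformed cells the order turned, with 70.8 and 65.5 TPM at atmospheric oxygen and 64.9 and 54.2 TPM at 3% oxygen. Metastasizing cells had the highest levels, 77.0 and 82.9 TPM at atmospheric oxygen and 87.3 and 85.6 TPM at 3% oxygen. By group mean the order ran from immortalized cells at atmospheric oxygen (36.3 ± 0.549 TPM, SD, n = 2) through primary cells at atmospheric oxygen and at 3% oxygen, immortalized cells at 3% oxygen, transformed cells at 3% oxygen, transformed cells at atmospheric oxygen and cells labelled metastasizing at atmospheric oxygen to metastasizing cells at 3% oxygen (86.4 ± 1.22 TPM). Immortalized and transformed cells at 3% oxygen were the only neighbours in that order with overlapping libraries.

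NRAS passed the adjusted p threshold in several comparisons at changes under 2-fold, and so was not called in any. It was higher in immortalized cells at 3% than at atmospheric oxygen by a log2 fold change of 0.59 (SE 0.10, adjusted p = 0.00149), in a comparison in which 13.4% of genes passed at any fold. It was higher in transformed than in immortalized cells at atmospheric oxygen by 0.90 (adjusted p = 1.77e-05), where 42.4% of genes passed at any fold, and higher in metastasizing than in transformed cells at 3% oxygen by 0.54 (adjusted p = 0.00266), where 13.3% did. Leaving out any 1 of the 4 immortalized libraries raised the adjusted p of the oxygen difference to between 0.0109 and 0.0208, and leaving out replicate b of the transformed cells at 3% oxygen brought the last of these to 0.41 (adjusted p = 0.0211). The oxygen effect on NRAS differed between transformed and immortalized cells by -0.79 (SE 0.14, 95% interval -1.09 to -0.49, adjusted p = 0.00159), where 17.7% of 12715 genes passed at any fold and 12.0% were called. Averaged over the 4 stages the oxygen effect on NRAS was 0.19 (SE 0.05, adjusted p = 0.00959), where 23.2% of 13146 genes passed at any fold and 2.18% were called. That average lost the threshold when 14 of the 16 libraries were left out in turn, with adjusted p-values up to 0.029.

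RRAS2 was the most abundant member in most libraries of the later stages. It stood at 76.6 and 78.3 TPM in primary cells at atmospheric oxygen and at 90.6 and 91.4 TPM at 3% oxygen. Immortalized cells had 73.5 and 66.7 TPM and 82.4 and 81.1 TPM. Transformed cells had 136 and 121 TPM at atmospheric oxygen and 123 and 162 TPM at 3% oxygen, above every library of the earlier stages. In metastasizing cells RRAS2 was at 163 and 175 TPM at atmospheric oxygen and at 112 and 100 (99.96) TPM at 3% oxygen. The 2 oxygen levels thus stood apart in metastasizing cells with the higher values at atmospheric oxygen, the reverse of primary and immortalized cells. By group mean RRAS2 ran from immortalized cells at atmospheric oxygen (70.1 ± 4.83 TPM, SD, n = 2) to cells labelled metastasizing at atmospheric oxygen (169 ± 8.03 TPM), and only the transformed groups overlapped among neighbours in that order.

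RRAS2 rose from immortalized to transformed cells at both oxygen levels, by a log2 fold change of 0.87 at atmospheric oxygen (SE 0.12, adjusted p = 0.000131) and 0.78 at 3% oxygen (SE 0.12, adjusted p = 0.000448), where 30.2% of genes passed at any fold in the latter. In metastasizing cells it fell by 0.67 on the log2 scale at 3% oxygen (SE 0.12, adjusted p = 0.00268), in a comparison in which 14.3% of genes passed at any fold, and the oxygen effect differed from that of transformed cells by -0.81 (SE 0.17, 95% interval -1.19 to -0.43, adjusted p = 0.00696), where 12.1% of 12590 genes passed. These changes were under 2-fold and none was called. The fall in metastasizing cells was -0.55 (adjusted p = 0.0129) after median-ratio rescaling of the libraries, and its adjusted p was 0.0143 and 0.0242 without replicates a and b at atmospheric oxygen. The difference between oxygen effects was -0.70 (adjusted p = 0.0234) after that rescaling and lost the threshold without replicate a or b of either stage at atmospheric oxygen or replicate b of either stage at 3% oxygen (-0.61 to -0.89, adjusted p 0.0134 to 0.034). A short transcript, RRAS2-206 (497 bases), went with the level, and its part in the difference was not tested. It was at 24.6 and 25.9 TPM in cells labelled metastasizing at atmospheric oxygen against 3.70 and 2.23 TPM at 3% oxygen. The other RRAS2 transcripts together stood at 139 and 149 TPM against 108 and 97.7 TPM, still apart between the oxygen levels.

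RRAS was the member with the highest level in primary cells at atmospheric oxygen, at 140 and 147 TPM, against 99.0 and 59.9 TPM at 3% oxygen. In immortalized cells it stood at 90.1 and 126 TPM at atmospheric oxygen and 58.1 and 53.4 TPM at 3% oxygen. Both libraries at 3% oxygen lay below both at atmospheric oxygen in these stages. Transformed cells had 44.2 and 39.3 TPM and 43.5 and 51.8 TPM, and metastasizing cells 65.0 and 49.3 TPM and 32.4 and 87.0 TPM, where the oxygen levels overlapped. In order of the means RRAS ran from transformed cells at atmospheric oxygen (41.7 ± 3.52 TPM, SD, n = 2) to primary cells at atmospheric oxygen (144 ± 5.09 TPM). The only neighbours in that order that stood apart were transformed against immortalized cells at 3% oxygen and immortalized against primary cells at atmospheric oxygen.

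No comparison of RRAS passed. Its log2 fold change from immortalized to transformed cells at atmospheric oxygen was -1.34 (SE 0.38, adjusted p = 0.0101), just over the threshold, and after median-ratio rescaling it was -1.57 with an adjusted p of 0.00323. The oxygen effects were -0.89 in primary cells (adjusted p = 0.102), -0.93 in immortalized cells (adjusted p = 0.0897), 0.19 in transformed cells and -0.09 in metastasizing cells. Averaged over the stages, the effect was -0.43 (adjusted p = 0.0892) with all libraries. It was -0.61 without replicate b of the metastasizing cells at 3% oxygen, the library with the high HRAS, which leaves 1 library in that group.

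MRAS, the least abundant of the 5 genes, was highest in primary cells, at 36.6 and 46.5 TPM at atmospheric oxygen and 37.8 and 34.5 TPM at 3% oxygen. Immortalized cells had 12.2 and 13.3 TPM at atmospheric oxygen and 17.9 and 22.7 TPM at 3% oxygen. Every immortalized library lay below every primary library. Transformed cells had 10.0 and 7.07 TPM and 12.3 and 34.0 TPM, and metastasizing cells 12.3 and 10.5 TPM and 16.2 and 15.7 TPM. MRAS at 3% oxygen was thus above MRAS at atmospheric oxygen in each library of the 3 stages that carry a transgene, but that order rested on the short transcript MRAS-206. Without it the oxygen levels overlapped in all 3 stages, with 12.2 and 13.3 TPM against 12.7 and 18.1 TPM in immortalized cells, 10.0 and 7.07 TPM against 7.53 and 7.52 TPM in transformed cells, and 9.33 and 10.5 TPM against 16.2 and 8.91 TPM in metastasizing cells. The group means ran from 8.55 ± 2.10 TPM (SD, n = 2) in transformed cells to 41.6 ± 7.04 TPM in primary cells, both at atmospheric oxygen, and overlaps between neighbours were limited to metastasizing and immortalized cells at atmospheric oxygen, immortalized and transformed cells at 3% oxygen, and the primary groups.

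MRAS fell from primary to immortalized cells at atmospheric oxygen by 1.66 on the log2 scale (SE 0.35, 95% interval -2.43 to -0.88, adjusted p = 0.00385), in a comparison in which 12.2% of 12388 genes were called. The call was lost without any 1 of its 4 libraries, with log2 fold changes of -1.49 to -1.83 and adjusted p-values of 0.0133 to 0.0344. At 3% oxygen the same step gave -0.82 (95% interval -1.60 to -0.05, adjusted p = 0.104). The oxygen effect in transformed cells was 1.24 (SE 0.35, 95% interval 0.46 to 2.01, adjusted p = 0.0198) and did not pass. Without replicate a at 3% oxygen it was 1.95, with 1 library left in that group. In replicate b there, MRAS-206, a listed transcript of 271 bases in 2 exons, made up 26.5 of 34.0 TPM against 4.79 TPM in replicate a. Averaged over the stages, the summed MRAS had an oxygen effect of 0.54 (adjusted p = 0.0317), or 0.72 without replicate a of the transformed cells at 3% oxygen.

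Counted over all comparisons, few of the members were called. Of 20 tests between oxygen levels within a stage, 0 were called, 2 passed the adjusted p threshold at any fold and 7 had an unadjusted limma p under 0.05, as 41.2% of the tests of all genes did, where 5.3%, 4.91%, 7.48% and 7.66% of all genes were called in the primary, immortalized, transformed and metastasizing stages. Of 30 tests between neighbouring stages 2 were called, 6 passed at any fold and 12 had an unadjusted p under 0.05, as did 45.5% of the tests of all genes. The background there was 12.2%, 24.3% and 4.12% called at atmospheric oxygen, in the order of the model, and 9.23%, 16.3% and 5.92% at 3% oxygen, while 22.8% passed at any fold between immortalized and primary cells at atmospheric oxygen. Of 15 tests of the difference between oxygen effects of neighbouring stages, 0 were called, 2 passed at any fold and 5 had an unadjusted p under 0.05 (34.3% of the tests of all genes), against 1.86%, 12.0% and 8.47% of genes called. The 5 tests of the averaged oxygen effect gave 0 calls, 1 that passed and 3 with an unadjusted p under 0.05, beside 2.18% called, 23.2% that passed and 48.6% with an unadjusted p under 0.05 over all genes. The share of all genes that passed at any fold was taken only for comparisons in which a member passed, where it ran from 12.1% to 42.4%. Apart from the averaged effect, the counts of members that passed at any fold thus have no background over the same tests. An exact permutation test of 2 against 2 libraries cannot give a two-sided p under 0.333, so single values were not tested in that way.

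**Figure D4:**
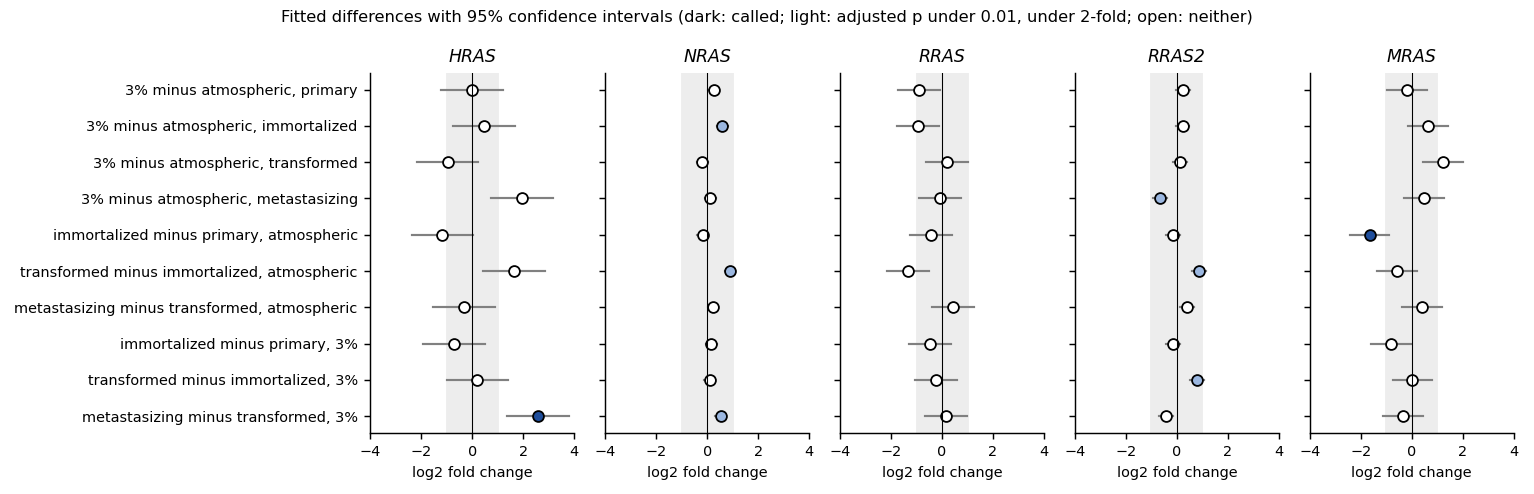
Fitted log2 fold changes of the 5 genes with 95% intervals in 4 comparisons of oxygen levels and 6 of neighbouring stages, with dark points for called genes, light points for an adjusted p under 0.01 at less than 2-fold, open points for neither, and a grey band for changes under 2-fold. The dark points are MRAS between immortalized and primary cells at atmospheric oxygen (-1.66) and HRAS between metastasizing and transformed cells at 3% oxygen (2.58), and the intervals of HRAS are the widest of the 5 genes.

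The genes around the Ras switch were read as 6 lists. Over all genes tested, 41.2% of 13146 were called in at least 1 of the same 10 comparisons of oxygen levels or neighbouring stages, and the count of each list is to be read against that share. Among 8 listed exchange factors 7 were tested and 5 were called in at least 1 of the 10 comparisons, the RASGRF and RASGRP genes and not SOS1 or SOS2. RASGRF2, a calcium-responsive exchange factor, was at 0.501 and 0.782 TPM in cells labelled metastasizing at atmospheric oxygen and 9.77 and 10.5 TPM at 3% oxygen. The libraries did not overlap, and the rise was 3.23 on the log2 scale (SE 0.26, adjusted p = 1.69e-05). RASGRF2 was under 1 TPM at atmospheric oxygen there, so it was tested only through 3% oxygen and could only rise. RASGRP3, a diacylglycerol-responsive exchange factor, moved the other way there, from 19.4 to 23.4 TPM at atmospheric oxygen to between 3.76 and 4.28 TPM at 3% oxygen, a fall of 2.27 (SE 0.22). Between transformed and metastasizing cells RASGRP3 rose by 1.41 at atmospheric oxygen and fell by 1.33 at 3% oxygen, both called. From immortalized to transformed cells at 3% oxygen 4 of the 7 tested exchange factors rose (RASGRP3, RASGRF1, RASGRP2 and RASGRP1) and none fell, with a median of 1.07 over the list and 0.11 over all genes, where 8.96% were called higher and 7.38% lower. In those immortalized libraries RASGRF1 (0.449 and 0.393 TPM), RASGRP2 (0.687 and 0 TPM) and RASGRP1 (0.583 and 0.722 TPM) averaged under 1 TPM. They were tested only through the transformed cells, so for them only a rise was possible, and the count and median of the list include them.

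GTPase-activating proteins, which switch Ras off, had 5 of 9 tested genes called in at least 1 comparison, beside the 41.2% of all genes, and NF1 and RASA1 in none. RASA4 fell from 37.0 to 37.2 TPM in primary cells to between 6.42 and 8.58 TPM in immortalized cells at atmospheric oxygen (log2 fold change -2.24) and fell again between transformed and metastasizing cells at 3% oxygen (-1.81), though it has a near-identical copy, RASA4B, with which reads may have been divided. DAB2IP fell in the step from immortalized to transformed cells at atmospheric oxygen, from 17.5 and 17.6 TPM to 6.04 and 6.32 TPM (-1.44). Among 12 genes for lipid modification and membrane delivery 3 were called in at least 1 comparison, a share below that of all genes, the one with the greatest changes being ABHD17C, which codes for a depalmitoylating enzyme of the Ras cycle. ABHD17C rose by 2.03 at atmospheric oxygen and by 1.90 at 3% oxygen from primary to immortalized cells and fell by 1.95 from immortalized to transformed cells at atmospheric oxygen.

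Of 12 genes tested in the RAF, MEK and ERK module, beside 41.2% of all genes, only KSR1, a scaffold for RAF and MEK, was called in any of the 10 comparisons, with a fall of 1.54 on the log2 scale at 3% oxygen in immortalized cells and a rise of 1.69 from there to transformed cells at 3% oxygen. Other effectors had 6 of 14 tested genes called in at least 1 comparison, close to the share of all genes. TIAM1, a Rac exchange factor that binds Ras, was at 0.0265 TPM or less in immortalized cells at atmospheric oxygen, listed at 0 in both immortalized libraries at 3% oxygen, and at 2.50 to 3.84 TPM in transformed cells. From there it fell to between 0.875 and 1.17 TPM in metastasizing cells, by 1.09 at atmospheric oxygen and by 1.30 at 3% oxygen. TIAM1 averaged under 1 TPM in immortalized cells, so against transformed cells it was tested only through the latter and could only rise. Its metastasizing libraries lay on both sides of 1 TPM. Where their mean was under 1 TPM, the step from transformed cells could only give a fall. RGL1, a Ral exchange factor, fell from immortalized to transformed cells at atmospheric oxygen by 1.63, from 13.1 and 13.5 TPM to 3.48 and 4.48 TPM. AFDN, a junctional Ras-binding protein, rose by 1.01 and RIN1, an exchange factor for RAB5, fell by 1.77 at 3% oxygen in transformed cells.

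Of the targets and feedback inhibitors of ERK, 15 of 18 tested genes were called in at least 1 of the 10 comparisons, where 41.2% of all genes were. In transformed cells 8 of 18 rose at 3% oxygen and 0 fell, with a median of 0.93 against 0.01 over all genes, where 4.9% of all genes were called higher and 2.58% lower. The 8 were the transcription factors ETV1 and ETV4, the ERK phosphatase DUSP5, the feedback inhibitors SPRY1, SPRY2, SPRED1 and SPRED2, and PHLDA1. SPRY1 was under 1 TPM in transformed cells at atmospheric oxygen, so it entered this comparison only through 3% oxygen. HRAS was lower in value at 3% oxygen in the same cells, as given above. In metastasizing cells 5 of 18 rose (DUSP5, CCND1, ETV4, SPRY4 and FOSL1) and SPRY1 fell, with a median of 0.54 against -0.13 over all genes, where 3.06% were called higher and 4.6% lower (376 and 565 genes). After median-ratio rescaling of the libraries the list had 6 that rose and 1 that fell, and all genes 455 higher and 447 lower. DUSP5 stood at 28.8 and 29.9 TPM at atmospheric oxygen and at 71.6 and 87.8 TPM at 3% oxygen there (log2 fold change 1.42, SE 0.11, adjusted p = 1.52e-05). SPRY1 fell by 1.70, from 1.91 and 2.55 TPM to 0.301 and 0.367 TPM, and it also fell by 1.87 in immortalized cells at 3% oxygen. At 3% oxygen SPRY1 averaged under 1 TPM in primary, immortalized and metastasizing cells. It was tested there only through atmospheric oxygen and could only fall, and the counts of the list include it. In primary cells 1 gene of the list was called higher at 3% oxygen (SPRY4) and 2 lower (EGR1 and SPRY1). The median there was also 0.54, against 0.08 over all genes, of which 339 of 12184 were called higher and 307 lower. In immortalized cells 1 was called higher (EPHA4) and 1 lower (SPRY1), with a median of 0.17 against 0.11. Of all 12049 genes there, 257 were called higher and 335 lower.

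**Figure D5:**
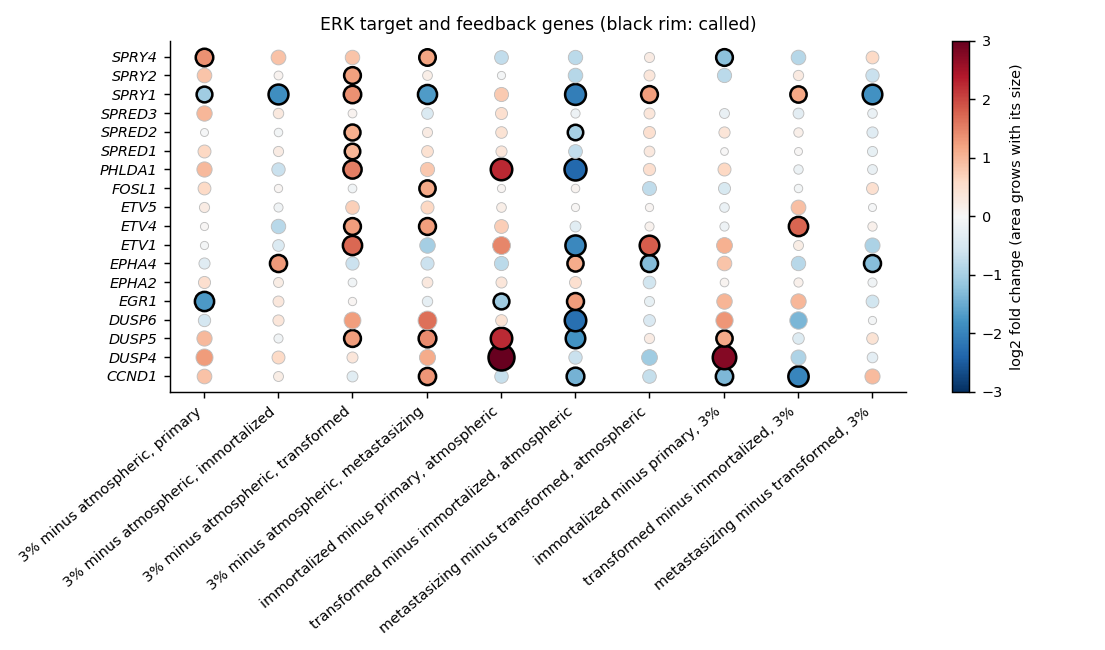
Log2 fold changes of the 18 tested ERK target and feedback genes in the 10 comparisons, with red for higher, blue for lower, point area growing with the size of the change and a black rim for called genes. In the column of transformed cells between oxygen levels 8 points with a rim are red and 0 are blue, and in the column from immortalized to transformed cells at atmospheric oxygen 2 are red and 7 are blue.

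From immortalized to transformed cells at atmospheric oxygen 7 of the 18 ERK targets fell and 2 rose, with a median of -0.78 against 0.22 over all genes, where 13.2% were called higher and 11.2% lower. PHLDA1 fell by 2.36, from between 98.6 and 110 TPM to between 19.3 and 20.3 TPM, and EGR1 rose by 1.27. SPRY1, among those that fell, averaged under 1 TPM in transformed cells and could only fall. After median-ratio rescaling, which brought the median of all genes to -0.01, 9 fell and 1 rose, and over all genes the calls went from 1632 higher and 1384 lower to 1066 higher and 1776 lower. From primary to immortalized cells 3 of 18 rose (DUSP4, PHLDA1 and DUSP5) and EGR1 fell at atmospheric oxygen, where 5.98% of all genes were called higher and 6.26% lower, and at 3% oxygen 2 of 17 rose (DUSP4 and DUSP5) and 2 fell (CCND1 and SPRY4), where 4.19% were called higher and 5.04% lower. After median-ratio rescaling the counts were 4 and 0 at atmospheric oxygen and 3 and 2 at 3% oxygen. DUSP4, a nuclear ERK phosphatase, rose by 3.42 at atmospheric oxygen and by 2.75 at 3% oxygen, from at most 7.61 TPM to at least 32.5 TPM, and EGR1 fell by 1.07 at atmospheric oxygen and CCND1 by 1.35 at 3% oxygen. Between transformed cells and those labelled metastasizing, the step that adds the Ras transgene by its label, 2 of 18 rose (ETV1 and SPRY1) and EPHA4 fell at atmospheric oxygen, and at 3% oxygen 0 rose and 2 fell (SPRY1 and EPHA4), with medians of 0.19 and -0.20 against 0.06 and -0.07 over all genes. Of all genes 2.4% were called higher and 1.72% lower at atmospheric oxygen, and 1.99% higher and 3.93% lower at 3% oxygen. HRAS itself was not called at atmospheric oxygen (-0.34, limma adjusted p = 0.715), and its interval, given above, holds a rise as well as a fall. In the step at 3% oxygen SPRY1 fell by 1.82, and the library with 772 TPM of HRAS was part of that comparison. SPRY1 averaged under 1 TPM in transformed cells at atmospheric oxygen and in metastasizing cells at 3% oxygen. In these steps it was tested only through the other group, which fixed its rise and its fall.

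The genes most like each member were named by Pearson's correlation of log2(TPM + 0.5) over the 16 libraries among 13146 protein-coding genes, as a description over libraries that share lines and plates. For HRAS they were ESR2 (r = 0.906), ABTB3 (0.905) and HOXB4 (0.902), which averaged 1 TPM or more only in metastasizing cells at 3% oxygen and so entered the search through the group in which HRAS is high. In replicates a and b of that group ESR2 stood at 0.246 and 3.19 TPM, ABTB3 at 1.27 and 6.21 TPM and HOXB4 at 0.822 and 4.22 TPM, and these likenesses therefore rest mainly on replicate b. For NRAS they were LSM12 (0.978), MIX23 (0.971) and BCAS2 (0.967). RRAS was most like SERF2 (0.922), VPS28 (0.911) and POLD4 (0.894), and RRAS2 most like NMU (0.965), CHMP5 (0.951) and SPTSSA (0.947). NMU was listed at 0 in every primary and immortalized library and above 1 TPM in every later one. It thus entered the search only through the stages in which RRAS2 is highest, and its likeness within those stages was not tested. The values for MRAS were lower, at 0.863 for NOTCH3, 0.855 for MYL12A and 0.842 for TES. NOTCH3, like MRAS, was higher in every primary library than in any other, and its likeness apart from that step was not tested. Among the members themselves NRAS went with RRAS2 (0.742) and HRAS (0.637) and against RRAS (-0.710), and RRAS went against RRAS2 (-0.641) and with MRAS (0.520).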

How the data were processed

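RNA from duplicate plates was made into stranded, poly(A)-selected libraries and sequenced by the authors, who quantified transcripts against GRCh37 with kallisto 0.42.1 and deposited transcript TPM (each library sums to 1000000). The annotation release was not given in the sources used here. Of 180253 transcripts, 151453 matched GENCODE release 44 on GRCh37 and carried 88.2% to 90.1% of the TPM of a library. The other 28800 were not assigned to genes, and 1 stray header line was skipped. Insert sizes in the labels ran from 264 to 364 bp.

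TPM was summed per gene, and log2(TPM + 0.5) of 19356 protein-coding genes was fitted with limma 3.58.1 (R 4.3.3; intensity trend, 8 group means, all 16 libraries), keeping genes whose mean reached 1 TPM in a group compared. Fold changes are on that scale and understate changes of low genes. A gene that averaged under 1 TPM in 1 group of a comparison was tested only through the other group, which fixed its direction. The authors' own test used read-level estimates not used here. On data simulated for oxygen levels in metastasizing cells, 171 of 194 genes changed by 2 on the log2 scale were called among 12119. The real metastasizing libraries at the lower oxygen level differed more between replicates than those of any other group. The simulated libraries had 1 spread per gene, the same in all 8 groups, so this share is not the power of the real comparison.

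Members and lists were chosen with earlier results of these data known. Named genes were the members, TERT, the 2 nearest protein-coding genes on each side of HRAS, the 3 genes most correlated with each member, and, of each list and comparison, the largest called rise and fall with libraries that did not overlap; other called genes of a list are named only with its count. Alternatives were another pseudocount, filter, scaling, variance model or set of libraries, protein-coding transcripts only, and a replicate block. Tables were handled with Python 3.11.15 and pandas 2.3.3. Median-ratio rescaling shifted the all-gene median by up to 0.226. Protein identities were computed by aligning the translated reference coding sequences.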

Additional observations from a re-analysis of the deposited data

Results flagged for a closer look

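The oxygen effect on NRAS differed between neighbouring stages by a test of the difference itself. It was -0.79 (SE 0.14, adjusted p = 0.00159, limma interaction term) in transformed relative to immortalized cells, with higher values at 3% oxygen in both immortalized libraries and lower values in both transformed libraries.

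The oxygen effect on RRAS2 differed likewise between metastasizing and transformed cells, by -0.81 (SE 0.17, adjusted p = 0.00696). The threshold of 0.01 was lost under a replicate block (adjusted p = 0.0115), median-ratio rescaling (-0.70, adjusted p = 0.0234), a fit of only the groups compared (adjusted p = 0.0592), no intensity trend (adjusted p = 0.0137), and without any 1 of 6 libraries (adjusted p 0.0134 to 0.034). RRAS2 was lower at 3% oxygen in both metastasizing libraries, and the transformed libraries of the 2 oxygen levels overlapped. The short transcript RRAS2-206 was at 33.3 TPM in replicate b of the transformed cells at 3% oxygen and at 24.6 and 25.9 TPM in metastasizing cells at atmospheric oxygen, and its part in the difference was not tested.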

How the results depend on the processing

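No read counts were used, so depth cannot be weighed. Of 30 member tests between neighbouring stages 2 were called, against 1 with no filter on low values, 4 with only the groups compared in the fit, and 0 to 5 when 1 library was left out. Between oxygen levels leaving out a library gave 0 to 1 calls, and for differences between oxygen effects 0 to 3, with 1 when only the groups compared were fitted. HRAS from transformed to metastasizing cells at 3% oxygen stayed at 2.58 but lost the call with no filter (adjusted p = 0.013) and with only the groups compared (adjusted p = 0.212), and ran from 1.37 to 3.79 when 1 library was left out. HRAS between oxygen levels in metastasizing cells ran from 0.74 to 3.16. Each fit with a library left out has a group of 1 library, so its calls hold no spread for that group. Without HRAS-201, an alternative chosen after seeing the data, these 2 HRAS differences were -0.10 and -0.28. Taking out the part that had been seen to rise largely fixed that outcome. HRAS-201 has no word of 31 bases of its own, so the direction cannot be assigned to this transcript. Fewer residual degrees of freedom enter the fits of only the groups compared. The causes of the other losses were not tested. In those fits NRAS and RRAS2 also lost the threshold for 0.59, 0.54, 0.78, -0.67 and -0.81.

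Replicate letters were checked for pairing by the correlation of deviations from group means over 13146 genes, which lay between -0.150 and 0.226 and did not show pairs. A replicate block kept the counts of 0, 2, 0 and 0 member calls, and 2 results under 2-fold lost the threshold, RRAS2 at -0.81 (adjusted p = 0.0115) and NRAS averaged over stages at 0.19 (adjusted p = 0.0133). Blocks with exchanged letters, chosen after seeing the data, gave 2 and 3 calls between neighbouring stages. Of 60 pairs of a list and a comparison, 10 had other counts and 14 a median of the other sign after median-ratio rescaling.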

Other observations

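In the metastasizing cells at 3% oxygen, the libraries with 143 and 772 TPM of HRAS also differed at ERK targets. Of 17 such genes that averaged 1 TPM or more, 4 were more than 2-fold higher in replicate b and 0 were more than 2-fold lower, beside 869 higher and 432 lower of 11843 genes. DUSP6, a cytoplasmic ERK phosphatase, was at 12.5 TPM in replicate a and 43.7 TPM in replicate b, DUSP4 at 12.0 and 36.5 TPM, PHLDA1 at 31.7 and 78.6 TPM, and ETV1 at 2.11 and 7.61 TPM. The median over the 17 was 0.18 on the log2 scale against 0.11 over all genes, and FOSL1 went the other way, at 377 and 225 TPM. These are values of 1 library against 1, with no test, and the genes were chosen after their values were seen. In the other 7 groups at most 1 gene of the list differed more than 2-fold between replicates.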
